A study of Mus musculus with 7 samples.

Results

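The insulin-like growth factor binding proteins were followed across all 7 libraries of this study, as 6 of the 24353 genes in the deposited table, where they are spelled in capitals as IGFBP2, IGFBP3, IGFBP4, IGFBP5, IGFBP6 and IGFBP7. Mouse symbols (Igfbp2 to Igfbp7) are used below. The genes were chosen by name from the family, with values of these same libraries already known, so the levels and fold changes below are descriptions. An adjusted p states where a gene lies in a fit over all 12314 genes tested and is not independent support for the choice of the family. All 6 genes were in the table and passed the filter on low values, which kept genes that reached 1 FPKM somewhere among the 7 libraries.

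The RNA is labelled as that of epithelial cells of the endometrium, from female C57BL/6 mice oophorectomized at 6 to 7 weeks of age. Mice received tamoxifen (0.5 mg/day in peanut oil, S.Q. in the labels) together with alpelisib (30 mg/kg/day, O.S. in the labels), tamoxifen alone, estradiol from a 0.01 mg pellet with a release time of 60 days, or vehicle, each for 28 days. The 18 randomized mice formed arms of 6 for the combination, tamoxifen and vehicle, and a further 2 mice received estradiol. The libraries number 2 for tamoxifen plus alpelisib, 2 for tamoxifen, 2 for estradiol and 1 for vehicle, and the labels number the mouse of every library except the vehicle one, which may be a single mouse or a pool. All mice lacked ovaries, so the vehicle group is a state of estrogen deprivation and not of a cycling uterus. The sources used here collect uterine horns and do not describe how epithelium was separated from them.

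IGF binding proteins are secreted proteins that hold IGF1 and IGF2 outside the cell, lengthen their life and limit or direct their access to the type 1 IGF receptor, which signals through insulin receptor substrates to PI3K and AKT. Proteases such as pappalysins, kallikreins and matrix metalloproteinases cut them and free the ligand. In the mouse uterus, estrogen acts largely through IGF1 made by the stroma, which drives the epithelium to divide. Tamoxifen modulates the estrogen receptor by tissue, blocking it in breast, and can act as an agonist on the endometrium. Alpelisib is an inhibitor of PI3K selective for its alpha isoform.

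Levels are in FPKM, fragments scaled to transcript length and to library size, which can be set against each other between genes of different length. Fold changes of the fit are on the log2(FPKM + 1) scale, given ± SE, and the added 1 shrinks those of genes with low values. Over all genes, the median log2 fold change was -0.03 for tamoxifen plus alpelisib against tamoxifen, -0.15 for tamoxifen plus alpelisib against vehicle, -0.12 for tamoxifen against vehicle, 0.12 for estradiol against vehicle, -0.26 for tamoxifen plus alpelisib against estradiol and -0.26 for tamoxifen against estradiol, and these medians are not subtracted from the changes below. With median-of-ratios scaling these medians lay between -0.02 and 0.02. The depth is not recorded in the table. The densest step of low values over 4144 genes with 1 annotated transcript, taken as 1 fragment, puts 6 libraries between 16.5 and 19.5 M fragments (M, 10 to the power 6), and estradiol library 2 showed no such step. All 12 epithelial markers, among them Epcam, Krt8 and Cdh1, reached an FPKM of 1 in every library, with summed levels from 3069 to 7741 FPKM, against 124.1 to 314.5 FPKM for the 14 stromal markers. Markers of other cells moved with the groups. Against vehicle, the mean summed level with tamoxifen was 35.8-fold higher for the 4 erythroid markers in the table and 3.15-fold lower for 9 smooth muscle markers. Of the erythroid markers 4 of 4 were called higher, and of the smooth muscle markers 6 of 7 tested were called lower. In this comparison 14.9% of all genes were called higher and 24.1% lower. Alas2 had passed the filter only through tamoxifen libraries and Myh11 only through vehicle. Against tamoxifen the combination had 4.37-fold less of the erythroid list. The summed level of 8 leukocyte markers was 3.02-fold higher with tamoxifen than in vehicle, carried by Itgam (51.5 and 56 FPKM with tamoxifen, 0.406 FPKM in vehicle), while the median log2 fold change of the 5 tested was -0.13, with 2 called higher and 1 lower (Lyz2, -2.31). Their part in the results below was not tested. In this material, fewer cells of a type and less RNA per cell cannot be told apart.

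Igfbp7 and Igfbp6 made up most of the family's transcripts in every library, and the shares of the other members differed between groups. In the combination libraries the 6 genes summed to 144.1 and 149.8 FPKM, in the tamoxifen libraries to 56 and 93.7 FPKM, in the estradiol libraries to 147 and 81.9 FPKM, and in the vehicle library to 193.8 FPKM. The ranges of the tamoxifen and estradiol libraries overlapped, while the combination libraries lay above both tamoxifen libraries and below vehicle. Igfbp7 was the most abundant member in all 7 libraries, at 33.4% to 63.3% of the family's summed FPKM, and Igfbp6 came next in all 7, at 18.9% to 32%. The share of Igfbp3 was 2% and 2.1% with the combination, 0.20% and 0.24% with tamoxifen, 0.67% and 1.32% with estradiol, and 16.5% in vehicle. Igfbp2 made up 6.27% and 8.19% with the combination, 0.58% and 1.34% with tamoxifen, 0.94% and 0.53% with estradiol, and 0.26% in vehicle. Igfbp4 made up 7.73% and 5.33% with the combination, 12.7% and 9.67% with tamoxifen, 18.6% and 22.2% with estradiol, and 15.4% in vehicle. The share of Igfbp5 was 11.4% and 6.53% with tamoxifen and at most 4.5% elsewhere. These shares do not change when a library is multiplied by a single size factor.

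**Figure D1:**
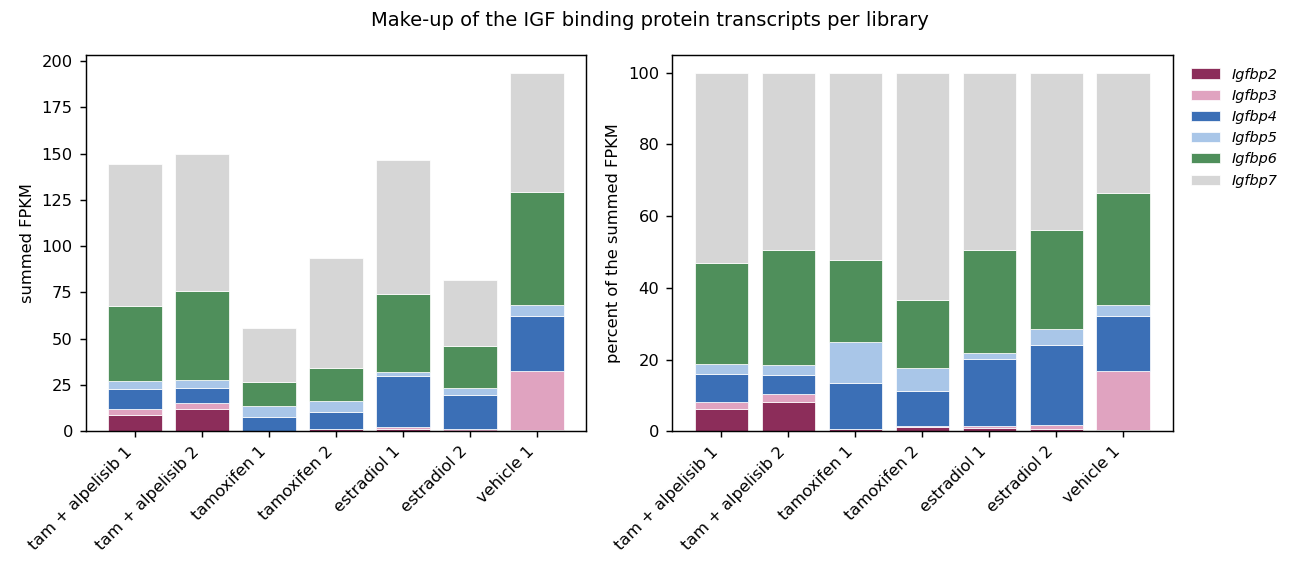
The left panel shows the summed FPKM of the 6 genes in each library, stacked by gene, and the right panel shows each gene's percent of that sum. Igfbp7 and Igfbp6 fill most of every bar, Igfbp3 is 16.5% of the vehicle bar and at most 2.1% of the others, and Igfbp2 is 6.27% and 8.19% of the bars of tamoxifen plus alpelisib.

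**Figure D2:**
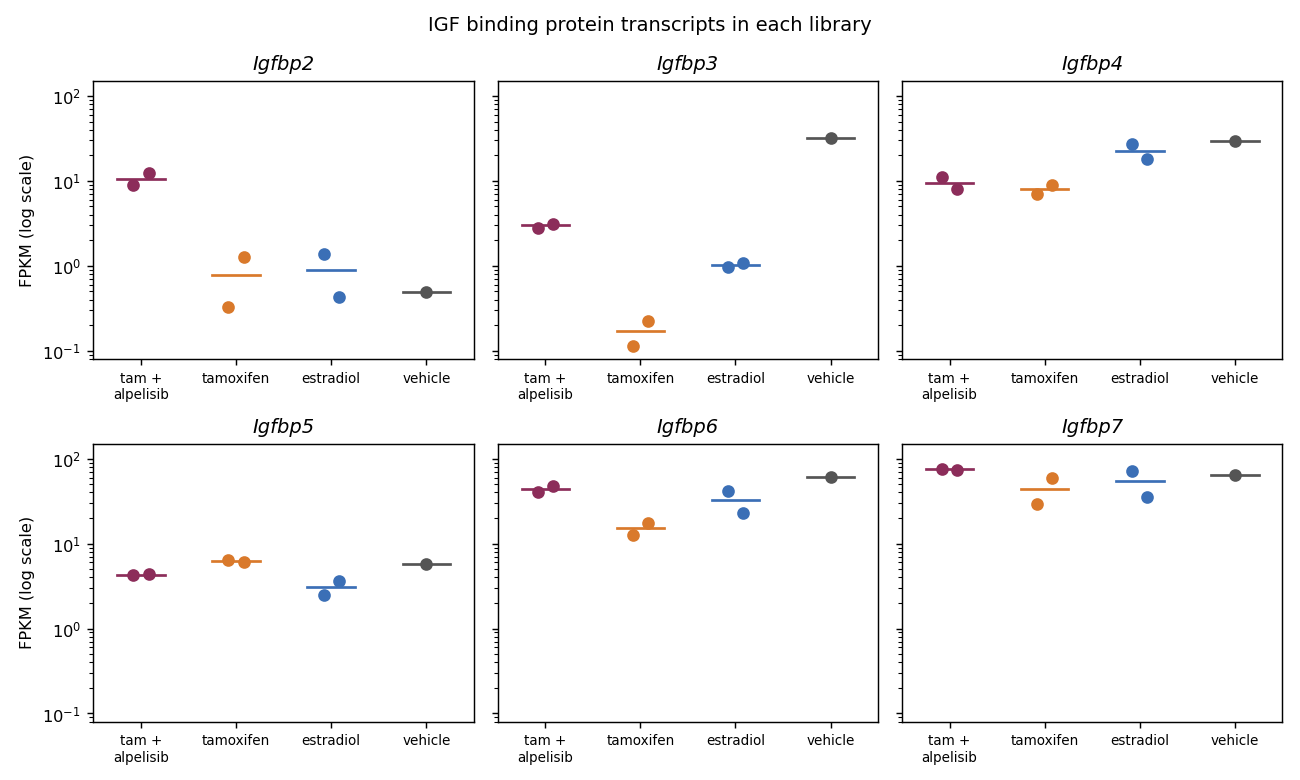
Each panel shows the FPKM of 1 gene on a log axis, with a point for each library and a line at the group mean; vehicle has 1 library. Igfbp3 spans from 0.114 FPKM with tamoxifen to 31.9 FPKM in vehicle, Igfbp2 stands at 9.04 and 12.3 FPKM with tamoxifen plus alpelisib against at most 1.38 FPKM elsewhere, and Igfbp7 is highest in the 2 libraries of tamoxifen plus alpelisib, at 76.5 and 74.1 FPKM.

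The 3 members called between tamoxifen plus alpelisib and tamoxifen were Igfbp2, Igfbp3 and Igfbp6, all higher with the combination, beside 11.7% of all genes tested that were called in either direction, 6.93% that were called higher and 4.81% that were called lower. Their promoter windows are shown because these genes moved in 1 direction in the contrast that isolates alpelisib. Each window runs from 250 bases before to 50 bases after an annotated start, from RefSeq on build GRCm38.p6, 5′ to 3′ on the gene's strand. All 6 genes matched this table by symbol, with 7 windows, Igfbp2 having 2 annotated starts. The Igfbp2 windows lie at chr1:72824230-72824529 and chr1:72825137-72825436 on the plus strand, the Igfbp3 window at chr11:7213874-7214173 on the minus strand, and the Igfbp6 window at chr15:102143936-102144235 on the plus strand. Capitals mark matches on either strand to the motifs searched.
Igfbp2 window 1: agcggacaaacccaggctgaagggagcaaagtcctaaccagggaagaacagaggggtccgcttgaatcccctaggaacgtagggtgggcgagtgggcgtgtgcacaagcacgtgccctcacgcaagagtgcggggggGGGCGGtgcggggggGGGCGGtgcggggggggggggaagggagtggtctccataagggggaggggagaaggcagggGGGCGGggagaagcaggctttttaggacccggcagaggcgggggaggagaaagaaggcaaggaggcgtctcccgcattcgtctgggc
Igfbp2 window 2: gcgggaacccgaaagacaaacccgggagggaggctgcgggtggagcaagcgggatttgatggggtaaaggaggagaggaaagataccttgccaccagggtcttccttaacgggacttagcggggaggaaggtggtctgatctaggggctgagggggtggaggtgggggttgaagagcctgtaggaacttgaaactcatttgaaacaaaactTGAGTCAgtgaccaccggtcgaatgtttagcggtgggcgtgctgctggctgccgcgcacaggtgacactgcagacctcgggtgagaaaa
Igfbp3: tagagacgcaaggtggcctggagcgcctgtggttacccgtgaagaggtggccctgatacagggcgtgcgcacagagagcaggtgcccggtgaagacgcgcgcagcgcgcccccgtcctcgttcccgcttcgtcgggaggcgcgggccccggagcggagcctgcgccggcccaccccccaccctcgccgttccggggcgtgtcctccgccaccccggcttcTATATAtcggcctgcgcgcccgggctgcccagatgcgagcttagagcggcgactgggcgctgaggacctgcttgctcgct
Igfbp6: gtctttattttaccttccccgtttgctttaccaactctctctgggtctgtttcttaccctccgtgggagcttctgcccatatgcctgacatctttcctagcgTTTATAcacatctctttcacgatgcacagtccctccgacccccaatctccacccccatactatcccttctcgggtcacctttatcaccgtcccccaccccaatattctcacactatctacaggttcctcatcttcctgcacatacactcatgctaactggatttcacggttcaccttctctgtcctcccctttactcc

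The motifs searched on both strands were the estrogen response element (GGTCA, any 3 bases, then TGACC, found in 0.07% of all 32851 promoter windows), its single arm AGGTCA (16.3%), the FOXO site TGTTTAC (3.65%), the AP-1 site TGANTCA (7.81%), the GC box GGGCGG (35.7%) and the TATA motifs TATAAA (13.6%) and TATATA (5.67%). No 2 of these matches overlapped in the windows shown. The first Igfbp2 window held 3 GC boxes, at bases 138, 153 and 214 of the window, and the second held 1 AP-1 match at base 212. The Igfbp3 window, with a GC content of 71.7%, held TATATA at base 221. The Igfbp6 window, with a GC content of 49.7%, held a match to TATAAA on the reverse strand at base 103. The letters of the full estrogen response element, its single arm and the FOXO site were in none of the 7 windows of the family, which says only that these letters are not in these windows.

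Igfbp3, the main carrier of IGFs in blood and a protein that also acts on cells without IGF, had the widest span of the family. It stood at 2.83 and 3.15 FPKM with tamoxifen plus alpelisib, 0.114 and 0.226 FPKM with tamoxifen, 0.979 and 1.08 FPKM with estradiol, and 31.9 FPKM in vehicle. The 4 groups did not overlap, in the order vehicle, combination, estradiol and tamoxifen from high to low. The mean with tamoxifen was 188-fold lower than the vehicle value, the tenth lowest log2 fold change of all genes at -4.82 ± 0.16 (limma adjusted p = 3.18e-05). That ratio rests on about 5 and 9 fragments in the tamoxifen libraries, against about 1507 in vehicle. Igfbp3 also fell with estradiol against vehicle, with a log2 fold change of -4.02 ± 0.16 (limma adjusted p = 0.00031), a ratio of means of 30.9. With the combination it fell to a level 10.7-fold below vehicle (log2 fold change -3.05 ± 0.16, limma adjusted p = 0.000105). These 3 comparisons share the single vehicle library.

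Adding alpelisib to tamoxifen went with more Igfbp3, a mean of 2.99 ± 0.227 FPKM with the combination against 0.17 ± 0.0786 FPKM with tamoxifen (SD, n = 2 each). The ratio of means was 17.6, and the fitted log2 fold change 1.77 ± 0.13 (limma adjusted p = 0.00336), which was 3.55 with a pseudocount of 0.1. The call was lost without combination library 1 or 2 (limma adjusted p = 0.0604 and 0.0655; 0.000947 to 0.0655 over the alternatives), with log2 fold changes of 1.83 and 1.71. The lowest of the alternatives, limma adjusted p = 0.000947, came from a replicate block with the estradiol numbers crossed, chosen after seeing the data. The lowest planned one was 0.00141. Igfbp3 was higher with the combination than with estradiol (0.97 ± 0.13, limma adjusted p = 0.00158). It was lower with tamoxifen than with estradiol (-0.80 ± 0.13, limma adjusted p = 0.00405, and -2.10 with a pseudocount of 0.1). The genes with the most similar profile over the 7 libraries were the keratin genes Krt80 and Krt17 and the clock gene Cry2. Their centred log2(FPKM + 1) profiles differed from that of Igfbp3 by a root mean square of 0.292, 0.354 and 0.402, where the spread of Igfbp3 around its own mean was 1.54. The summed level of 14 stromal markers was 2.49-fold lower with tamoxifen than in vehicle and that of 11 endothelial markers 3.82-fold lower. With estradiol against vehicle these sums were 1.24-fold and 1.69-fold lower. With the combination against tamoxifen the stromal sum was 1.52-fold higher and the endothelial sum 1.96-fold lower. The part of stromal and endothelial RNA in the Igfbp3 result was not tested.

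Igfbp2, which binds IGF2 strongly and carries an integrin binding motif, was high with tamoxifen plus alpelisib and low elsewhere. It had 9.04 and 12.3 FPKM with the combination, 0.324 and 1.26 FPKM with tamoxifen, 1.38 and 0.434 FPKM with estradiol, and 0.495 FPKM in vehicle. Both combination libraries lay above the other 5, among which the tamoxifen, estradiol and vehicle values overlapped. Against tamoxifen the mean was 13.5-fold higher, 10.7 ± 2.29 FPKM against 0.791 ± 0.661 FPKM (SD, n = 2 each), with a log2 fold change of 2.74 ± 0.34 that ranked 17 from the top of 12314 genes (limma adjusted p = 0.00791). As with Igfbp3, the call was lost without combination library 1 or 2 (limma adjusted p = 0.0691 and 0.0974; 0.000501 to 0.0974 over the alternatives). The level with the combination also exceeded vehicle, by 2.95 ± 0.42 on the log2 scale (limma adjusted p = 0.0035), and estradiol, by 2.64 ± 0.34 (limma adjusted p = 0.0014). Igfbp2 thus ended above the vehicle level with the combination, whereas Igfbp3 stayed below it. With tamoxifen against vehicle the log2 fold change was 0.21 (95% interval -0.80 to 1.22, limma adjusted p = 0.722), on about 8 and 27 fragments with tamoxifen and about 13 in vehicle. The 3 genes most like Igfbp2 were Arl14, a small GTPase, Slpi, a secreted inhibitor of leukocyte proteases, and Lgals7, a galectin of stratified epithelium, at root mean square differences of 0.379, 0.4 and 0.412 against a spread of 1.28 for Igfbp2. Lgals7, for example, had 110.1 and 129 FPKM with the combination, 14.9 and 25.9 FPKM with tamoxifen, 15.4 and 10.9 FPKM with estradiol, and 6.93 FPKM in vehicle.

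Igfbp6, which prefers IGF2 over IGF1, was lowest with tamoxifen. Its levels were 40.3 and 48 FPKM with tamoxifen plus alpelisib, 12.8 and 17.7 FPKM with tamoxifen, 42.1 and 22.7 FPKM with estradiol, and 60.9 FPKM in vehicle. Both tamoxifen libraries lay below the other 5, the combination and estradiol libraries overlapped, and vehicle was the highest. Against vehicle it fell 4-fold with tamoxifen (log2 fold change -1.95 ± 0.38, limma adjusted p = 0.00896). With the combination it was 2.9-fold higher than with tamoxifen, 44.2 ± 5.4 FPKM against 15.2 ± 3.51 FPKM (SD, n = 2 each), with a log2 fold change of 1.49 ± 0.31 (limma adjusted p = 0.032). That call was lost without any 1 of the 4 libraries compared, with no filter on low values, and with a replicate block (limma adjusted p = 0.0715 to 0.221, 0.0957 and 0.0775; 0.00261 to 0.221 over the alternatives). Igfbp6 was lower with tamoxifen than with estradiol (-0.99 ± 0.31, limma adjusted p = 0.0374), a call kept in 6 of 14 alternatives. The 6 include the replicate block with the estradiol numbers crossed, chosen after seeing the data. Against vehicle, the log2 fold change was -0.46 with the combination (95% interval -1.37 to 0.45) and -0.95 with estradiol (-1.87 to -0.04, limma adjusted p = 0.095), neither called. The 4 mesothelial markers (Upk3b, Msln, Wt1 and Lrrn4) summed to 29.1 and 26.9 FPKM with the combination and 9.62 and 12.1 FPKM with tamoxifen. They summed to 31.8 and 29.7 FPKM with estradiol, and 22.8 FPKM in vehicle. Like Igfbp6, this sum was lowest with tamoxifen, but it was highest with estradiol, whereas Igfbp6 was highest in vehicle. Of these markers 3 of 4 were called higher with the combination than with tamoxifen, where 6.93% of all genes were. Lrrn4 was not called, at a log2 fold change of -0.04. None of the 4 was at 0 in any library, and the part of mesothelial RNA in the Igfbp6 result was not tested. The genes most like Igfbp6 were Grasp, Flot1 and Gabarapl1, at root mean square differences of 0.193, 0.22 and 0.234 against a spread of 0.744.

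Igfbp4, an inhibitor of IGF action that pappalysin-1 cuts, separated the tamoxifen arms from the rest. It had 11.1 and 7.98 FPKM with tamoxifen plus alpelisib, 7.11 and 9.06 FPKM with tamoxifen, 27.3 and 18.2 FPKM with estradiol, and 29.8 FPKM in vehicle. The 4 libraries with tamoxifen overlapped with each other and all lay below estradiol and vehicle. It fell 3.69-fold with tamoxifen against vehicle (log2 fold change -1.77 ± 0.30, limma adjusted p = 0.00571) and 3.12-fold with the combination against vehicle (-1.56 ± 0.30, limma adjusted p = 0.0105). Against estradiol it was 2.81-fold lower with tamoxifen (-1.37 ± 0.25, limma adjusted p = 0.00572) and 2.38-fold lower with the combination (-1.16 ± 0.25, limma adjusted p = 0.00897). Without combination library 2 both combination calls were lost, at adjusted p = 0.0599 by limma against vehicle and 0.0681 against estradiol (0.0056 to 0.0599 and 0.00472 to 0.0681 over the alternatives). Between the combination and tamoxifen the log2 fold change was 0.21, with a 95% interval from -0.39 to 0.81 (limma adjusted p = 0.631). The 14 stromal markers summed to 189.8 and 195.2 FPKM with the combination, 128.5 and 124.1 FPKM with tamoxifen, 256.2 and 250 FPKM with estradiol, and 314.5 FPKM in vehicle. Of the 13 tested, 12 were called lower and 1 (Fbln1) higher with tamoxifen against vehicle, where 24.1% and 14.9% of all genes were. Among the 12, Pdgfra and Hand2 had passed the filter on low values only through vehicle. With the combination against tamoxifen 3 of the 13 were called higher and 1 lower, where 6.93% and 4.81% of all genes were. The median log2 fold change was -0.04. Most of the difference in the sum was Dcn (86.8 and 93.1 FPKM with the combination, 31.7 and 30.9 FPKM with tamoxifen). Between 8 and 13 of the 14 reached an FPKM of 1 per library. Pdgfrb was at 0 in combination library 2 and Dpt in estradiol library 2. The part of stromal RNA in the Igfbp4 result was not tested. The genes most like Igfbp4 were Adh5, the galectin gene Lgals1, and catalase (Cat), at root mean square differences of 0.14, 0.144 and 0.163 against a spread of 0.736.

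Igfbp5, which binds to extracellular matrix and is cut by pappalysin-2, varied least. It had 4.23 and 4.35 FPKM with tamoxifen plus alpelisib, 6.41 and 6.12 FPKM with tamoxifen, 2.5 and 3.65 FPKM with estradiol, and 5.82 FPKM in vehicle. The 4 groups did not overlap, with tamoxifen the highest and estradiol the lowest. It was 2.04-fold higher with tamoxifen than with estradiol (log2 fold change 0.85 ± 0.16, limma adjusted p = 0.00744), the opposite direction to Igfbp3, Igfbp4 and Igfbp6 in that comparison. It fell with estradiol against vehicle (-0.76 ± 0.20, limma adjusted p = 0.0305), a call kept in 7 of 12 alternatives and lost with no filter on low values (limma adjusted p = 0.0599) and without any 1 of the tamoxifen or combination libraries (limma adjusted p = 0.0508 to 0.0771; 0.0147 to 0.0771 over the alternatives). Between the combination and tamoxifen its log2 fold change was -0.46 (95% interval -0.86 to -0.06, limma adjusted p = 0.128), not called although both combination libraries lay below both tamoxifen libraries. Against vehicle, the changes with tamoxifen (0.09, 95% interval -0.40 to 0.58) and with the combination (-0.37, -0.86 to 0.12) were not called. The most similar genes were Cog6, Nudt4 and Kif5b, at root mean square differences of 0.141, 0.143 and 0.149 against a spread of 0.36.

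Igfbp7, a more distant relative that binds IGFs weakly and is known as a protein of blood vessel walls, was called in none of the 6 comparisons by limma, and at an unadjusted p under 0.05 in none either. It had 76.5 and 74.1 FPKM with tamoxifen plus alpelisib, 29.3 and 59.3 FPKM with tamoxifen, 72.4 and 35.9 FPKM with estradiol, and 64.8 FPKM in vehicle. The 2 tamoxifen libraries differed 2.02-fold from each other and so did the 2 estradiol libraries, which left wide intervals. For the combination against tamoxifen the log2 fold change was 0.84, with a 95% interval from -0.17 to 1.85 (limma adjusted p = 0.245), and for tamoxifen against vehicle -0.62, from -1.86 to 0.62 (limma adjusted p = 0.375). Both combination libraries lay above the other 5, and the estradiol libraries overlapped with tamoxifen and vehicle. The 11 endothelial markers summed to 2.81 and 3.96 FPKM with the combination, 6.45 and 6.84 FPKM with tamoxifen, 16.8 and 13.3 FPKM with estradiol, and 25.4 FPKM in vehicle. Of the 10 tested, 3 were called lower with the combination than with tamoxifen (Eng, Cldn5 and Emcn) and none higher. Of all genes 4.81% were called lower and 6.93% higher. The median log2 fold change of the 10 was -0.02, and the lower sum rested on Eng (0.422 and 0.802 FPKM with the combination, 3.57 and 4.33 FPKM with tamoxifen). Pecam1 was at 0.304 and 0.348 FPKM with the combination and 0.0977 and 0.109 FPKM with tamoxifen, a difference that was not called. Cldn5 was at 0 in both combination libraries, and Tek and Emcn were at 0 in 1 of them. The part of endothelial RNA in the Igfbp7 levels was not tested. The gene most like Igfbp7 in its profile was the epithelial claudin gene Cldn3, at a root mean square difference of 0.152 against a spread of 0.502, followed by Lsm8 (0.177) and Tsc22d1 (0.18).

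**Figure D3:**
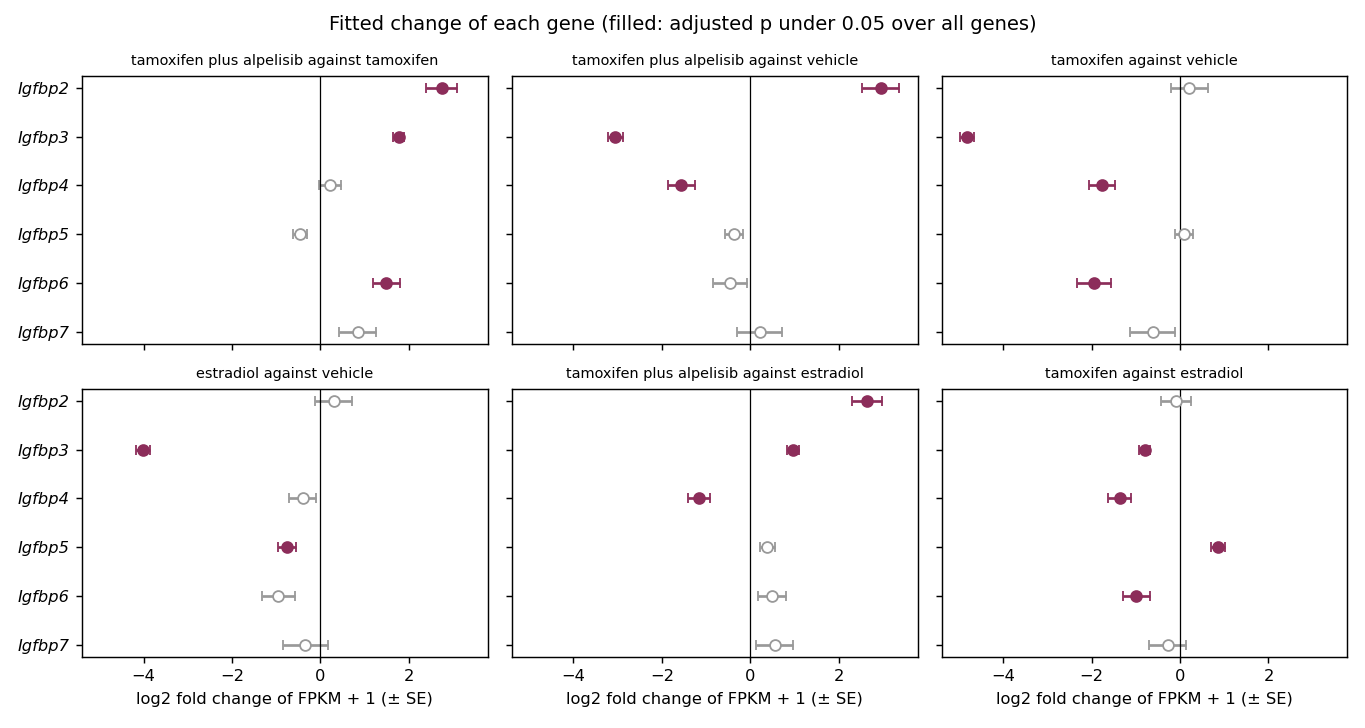
Each panel shows the log2 fold change of FPKM + 1 of the 6 genes in 1 comparison, with bars of ± 1 SE from the fit over all genes and filled points at an adjusted p under 0.05. Igfbp3 is filled in all 6 panels, from -4.82 for tamoxifen against vehicle to 1.77 for tamoxifen plus alpelisib against tamoxifen, and Igfbp7 in none.

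**Figure D4:**
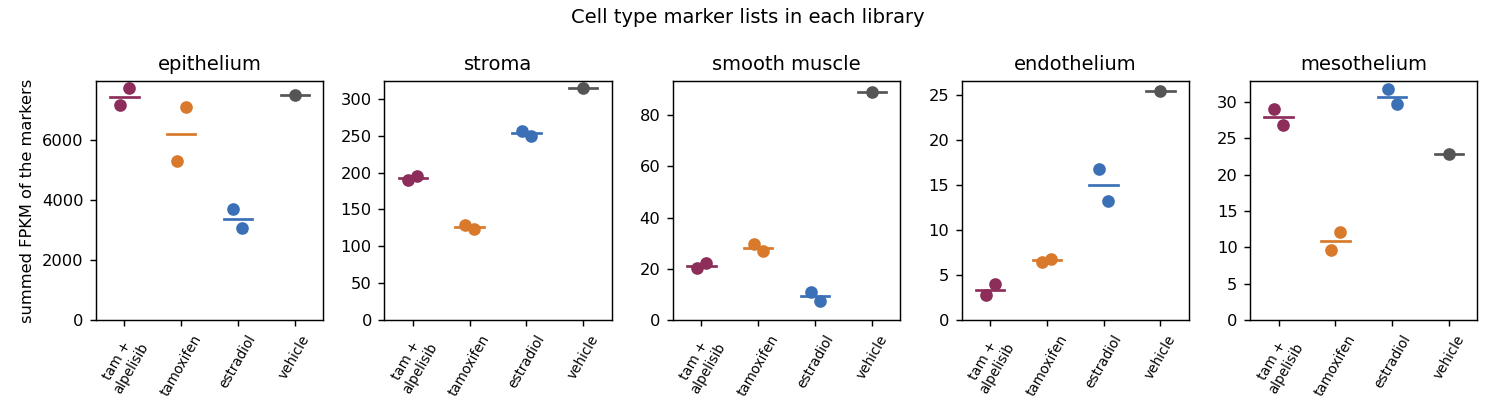
Each panel shows the summed FPKM of 1 list of cell type markers, with a point for each library and a line at the group mean. The epithelial list lies between 3069 and 7741 FPKM, the stromal list is highest in vehicle at 314.5 FPKM, and the mesothelial list is lowest with tamoxifen at 9.62 and 12.1 FPKM.

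Counted by comparison, 3 of the 6 genes were called between tamoxifen plus alpelisib and vehicle (Igfbp2 higher, Igfbp3 and Igfbp4 lower), where 34.9% of all genes were called, 13.1% higher and 21.8% lower. Between tamoxifen and vehicle 3 were called, all lower (Igfbp3, Igfbp4 and Igfbp6), where 39% of all genes were called, 14.9% higher and 24.1% lower. Between estradiol and vehicle 2 were called, both lower (Igfbp3 and Igfbp5), where 35.5% of all genes were called, 22.7% higher and 12.8% lower. Against estradiol, 3 were called with tamoxifen plus alpelisib (Igfbp2 and Igfbp3 higher, Igfbp4 lower), where 53.2% of all genes were called (15.7% higher, 37.5% lower), and 4 with tamoxifen (Igfbp5 higher, Igfbp3, Igfbp4 and Igfbp6 lower), where 48.5% were called (12.3% higher, 36.2% lower). As the genes were picked with these values known, nothing is read from the counts.

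Among the ligands, receptors and substrates that these proteins serve, Igf1 was near 1 FPKM in every library and Igf1r was lowest with tamoxifen. Of 14 further genes of the IGF axis 7 could be tested. Between the combination and tamoxifen 2 of them were called, both higher, where 11.7% of all genes were called, with a median log2 fold change of -0.05 beside -0.03 for all genes. Between tamoxifen and vehicle 3 were called, all lower, where 39% of all genes were called, and 2 of the 3 (Igf2 and Irs2) had passed the filter only through vehicle. Igf1, named here for its role after its values were seen, had 0.931 and 1.06 FPKM with the combination, 1.28 and 0.998 FPKM with tamoxifen, 0.995 and 1.21 FPKM with estradiol, and 1.08 FPKM in vehicle, ranges that overlapped. Igf2 had at most 0.139 FPKM in the 6 libraries of treated mice and 1.6 FPKM in vehicle. It passed the filter on low values only through the vehicle library. It is therefore only counted above, and no fold change or adjusted p against vehicle is given for it. The receptor gene Igf1r had 3.34 and 2.79 FPKM with the combination, 1.34 and 1.17 FPKM with tamoxifen, 3.89 and 5.53 FPKM with estradiol, and 6.41 FPKM in vehicle. It was called between the combination and tamoxifen (0.85 ± 0.18, limma adjusted p = 0.0333) and between tamoxifen and vehicle (-1.72 ± 0.22, limma adjusted p = 0.00192). Irs2, a substrate that links the receptors to PI3K, had 0.962 and 0.913 FPKM with the combination, 0.227 and 0.16 FPKM with tamoxifen, 0.515 and 0.684 FPKM with estradiol, and 3.34 FPKM in vehicle. It was called between the combination and tamoxifen (0.70 ± 0.13, limma adjusted p = 0.0229). Like Igf2 it passed the filter only through vehicle. The insulin genes Ins1 and Ins2 were listed at 0 in every library. Igfbp1, the remaining classical binding protein and a marker of human decidual cells, was listed at 0.0436 FPKM in tamoxifen library 2, 0.0822 FPKM in estradiol library 1 and 0 in the other 5.

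Among genes that act on the binding proteins, Mmp7 was higher in all treated groups than in vehicle. Of 10 proteases and protease inhibitors 7 could be tested. Between the combination and tamoxifen 2 were called, both higher, where 11.7% of all genes were called, with a median log2 fold change of -0.01 beside -0.03 for all genes. Between tamoxifen and vehicle 2 were called higher and 3 lower, where 14.9% and 24.1% of all genes were, and 1 of the 3 lower (Mmp3) had passed the filter only through vehicle. The matrix metalloproteinase gene Mmp7 had 143.8 and 162 FPKM with the combination, 54.9 and 78.1 FPKM with tamoxifen, 64.8 and 39.1 FPKM with estradiol, and 0.881 FPKM in vehicle, and was called in both comparisons (1.21 ± 0.28 and 5.14 ± 0.34 on the log2 scale, limma adjusted p = 0.0429 and 0.000206). The stanniocalcin genes, whose products inhibit pappalysins, moved in opposite directions with tamoxifen against vehicle: Stc2 rose by 2.96 ± 0.24 (limma adjusted p = 0.000363) and Stc1 fell by 2.52 ± 0.15 (limma adjusted p = 0.000121). The stromelysin gene Mmp3 had at most 0.267 FPKM in the 6 libraries of treated mice and 2.21 FPKM in vehicle. Adam28, a metalloproteinase that cuts IGFBP3, was higher with the combination than with tamoxifen, at 9.51 and 9.67 FPKM against 6.22 and 5.78 FPKM (0.60 ± 0.12, limma adjusted p = 0.0296). The pappalysin genes Pappa and Pappa2, named for their role after their values were seen, had at most 0.243 FPKM in any library and were not tested.

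Among 13 other genes whose products carry an IGFBP-like domain, 9 could be tested. Between the combination and tamoxifen 2 were called, both higher, where 11.7% of all genes were called, and 1 of them (Htra4) had passed the filter only through a combination library. Between tamoxifen and vehicle 2 were called higher and 4 lower, where 14.9% and 24.1% of all genes were. Of the 2 called higher, Wisp2 had passed the filter only through libraries of mice given tamoxifen, and Igfbpl1 only through combination library 2. These counts cover the members that passed the filter and not the whole list. Ctgf, a matricellular protein once named as a binding protein of this family, had 64.7 and 67.4 FPKM with the combination, 3.65 and 7.58 FPKM with tamoxifen, 13.8 and 9.71 FPKM with estradiol, and 258.8 FPKM in vehicle. Its groups stood in the same order as those of Igfbp3, with a log2 fold change of 3.41 ± 0.31 between the combination and tamoxifen (limma adjusted p = 0.00418) and -5.36 ± 0.38 between tamoxifen and vehicle (limma adjusted p = 0.00024). Its relative Cyr61 had 631.9 and 672 FPKM with the combination, 242 and 526 FPKM with tamoxifen, 267 and 168 FPKM with estradiol, and 2307 FPKM in vehicle. It fell with tamoxifen against vehicle (-2.69 ± 0.51, limma adjusted p = 0.00828) and had a log2 fold change of 0.87 ± 0.42 between the combination and tamoxifen (limma adjusted p = 0.23). The serine protease gene Htra4 had 1.12 and 0.981 FPKM with the combination, 0.156 and 0.114 FPKM with tamoxifen, 0.758 and 0.668 FPKM with estradiol, and 0.435 FPKM in vehicle.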

How the data were processed

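RNA of 7 libraries was measured by sequencing. Per the submitters' processing notes the authors used CASAVA, Bowtie and Cufflinks, and the only build named is hg19, while the gene symbols are those of the mouse. The deposited values were read here as FPKM, because they are not whole numbers and their sums differ between libraries (264322 to 403562). The sources used here give neither read counts nor tool versions. Symbols were matched regardless of case.

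From these values, log2(FPKM + 1) was fitted with limma 3.58.1 (R 4.3.3, trend) as 4 group means over all 7 libraries, on the 12314 genes that reached 1 FPKM somewhere among them, with 3 residual degrees of freedom and 3.27 added by the prior. The lone vehicle library takes its spread from the other groups. Benjamini-Hochberg adjustment was applied to all genes tested in a comparison, and genes under 0.05 were called. The method was tested on simulated data for the comparison of tamoxifen plus alpelisib with tamoxifen only. Comparisons with the lone vehicle library were not tested in this way. The labels give each numbered library 1 mouse. The p-values rest on the spread between 2 mice within the numbered groups, pooled over these groups and combined with the prior from all genes.

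Members and gene lists were chosen with earlier results of these data known. Genes named beyond the family are up to 4 of each pathway list with the lowest adjusted p in the comparison of tamoxifen plus alpelisib with tamoxifen or of tamoxifen with vehicle, members at 0 in every library, and the 3 genes of a mean FPKM of at least 5 whose profile differs least from each member; not all are given. Igf1, Igfbp1, Pappa, Pappa2 and the single cell type markers are named outside this rule, after their values were seen. Alternatives were 2 other scalings, 2 other filters, a pseudocount of 0.1, robust empirical Bayes, each library left out where its group has 2, and a replicate block. Python 3.11.15 with numpy 2.4.6, pandas 2.3.3 and matplotlib 3.10.9 was used for the other values.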

Additional observations from a re-analysis of the deposited data

How the results depend on the processing

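Of the fold changes of single members recomputed under the alternatives, 424 kept their direction and their side of the threshold, 25 lost a call, 8 gained one and 11 changed sign, none of the last a called value. The calls of Igfbp3 were kept in all alternatives in 5 of the 6 comparisons, the exception being the combination against tamoxifen. Changes in the count of called members are listed here where the count moved more than 1.5-fold or to 0. Smaller changes also occurred and are not all listed, such as from 4 to 3 between tamoxifen and estradiol with median-of-ratios size factors. Leaving out 1 library gave 0 to 3 called between the combination and tamoxifen (0 without either combination library), and 1 to 3 between estradiol and vehicle. With no filter on low values 1 was called between estradiol and vehicle. With median-of-ratios size factors 5 were called between the combination and estradiol, adding Igfbp5 and Igfbp6. The changes of sign were for Igfbp2 between tamoxifen and estradiol (0.05 with size factors, 0.20 with quantile normalization, 0.29 without tamoxifen replicate 1 and 0.27 without estradiol replicate 1), between estradiol and vehicle (-0.06 without estradiol replicate 1) and between tamoxifen and vehicle (-0.18 without tamoxifen replicate 2). For Igfbp4 it was -0.01 between the combination and tamoxifen without combination replicate 1. For Igfbp7 they were 0.07 with size factors, 0.21 without tamoxifen replicate 1 and 0.21 without estradiol replicate 1 between tamoxifen and estradiol, and 0.16 between estradiol and vehicle without estradiol replicate 2. The same results ran to -0.48, 0.67 and 0.59 for Igfbp2 (tamoxifen against estradiol, estradiol against vehicle and tamoxifen against vehicle), to 0.43 for Igfbp4, and to -0.78 and -0.83 for Igfbp7 (tamoxifen against estradiol and estradiol against vehicle) with another library left out. The cause was not tested.

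The mouse numbers 1 and 2 name animals and do not pair the groups by design. Deviations of same-numbered libraries correlated at 0.273 between the combination and tamoxifen, -0.182 between the combination and estradiol and -0.403 between tamoxifen and estradiol. Whether libraries of different groups share another factor was not tested. With a replicate block 2, 3 and 3 members were called in these comparisons of the combination with tamoxifen, of the combination with estradiol and of tamoxifen with estradiol. With the estradiol numbers crossed, chosen after seeing the data, the counts were 3, 4 and 4.

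The levels of Igfbp3 and Igfbp2 with tamoxifen rest on few fragments, about 5 to 27 per library, so the pseudocount sets much of their fitted fold changes.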
